A study of Homo sapiens with 30 samples.

Results

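Cultured human brain endothelial cells were treated directly with epinephrine, and their transcripts were compared with those of untreated cultures by RNA sequencing. The cells were hCMEC/D3, an immortalised line of human brain microvascular endothelium used to study the barrier between blood and brain, so the data describe a single line. The comparison used 6 of the 30 samples of the series, namely 3 libraries of cells kept for 12 h with epinephrine at 200 nM (Epinephrine 1 to 3) and 3 libraries of cells kept for 12 h in medium without serum (Control 1 to 3). Of the 63138 genes in the table of counts, 15908 passed the filter on low counts and were tested. The other direct groups, of 3 libraries each, were TNF (tumour necrosis factor, 25 ng/mL), IL1b (interleukin-1 beta, 10 ng/mL) and C5a (a fragment of complement, 50 ng/mL), each for 12 h, and they entered the same fit. Further groups received extracellular vesicles collected from cells stimulated in these ways, among them vesicles of epinephrine-treated cells (EV-Epinephrine) and of untreated cells (EV-Control). The labels do not say whether the libraries of a group came from separate cultures, so the p-values measure the spread between these samples, which may be technical.

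Epinephrine is a catecholamine that binds adrenergic receptors, which are G protein-coupled. Beta receptors act through the stimulatory G protein and adenylyl cyclase to raise cyclic AMP, which activates protein kinase A and the transcription factor CREB. Alpha-1 receptors act through phospholipase C and calcium, and alpha-2 receptors inhibit adenylyl cyclase. In vessels, catecholamines are known for their effects on tone, permeability and leukocyte traffic, and phosphodiesterases and beta-arrestins limit the signal.

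Library totals ranged over the series from 16643961 to 22112326 counts. Beyond that, the 3 Epinephrine libraries differed from each other more than those of the other direct groups did. Levels are given as CPM, the counts of a gene per 1000000 counts of its library after scaling between libraries by the trimmed mean of M-values. Over genes with a mean of at least 5 CPM, the median SD of log2 CPM was 0.104 in Epinephrine and lay between 0.0619 and 0.0687 in the other 4 direct groups. An SD above 0.3 was found for 329 genes in Epinephrine against 79 to 147 genes in those groups. Epinephrine 2 was the library farthest from the other members of its group for 49.8% of genes, against 28% for Epinephrine 1 and 22.2% for Epinephrine 3. The chi-square per gene was 12.9 between Epinephrine 1 and 2, 10.1 between 2 and 3 and 5.07 between 1 and 3, while the Control pairs gave 2.81 to 3.79.

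The differences among the Epinephrine libraries followed the exon length of the genes. Across genes within a library, Spearman's rho between exon length and the log2 difference from the other libraries of the group was 0.48 for Epinephrine 1, -0.54 for Epinephrine 2 and 0.23 for Epinephrine 3, and it lay from -0.06 to 0.06 in the Control libraries. Genes are not independent replicates, and the coefficients are given as descriptions. Genes with under 2 kb of exon sequence had a median of 0.23 in Epinephrine 2 and of -0.16 in Epinephrine 1, and genes with over 8 kb had medians of -0.13 and 0.09. Genes of cytosolic ribosomal proteins, which are short, took 4.1% of the counts in Epinephrine 2 and 3.4% in each of the other Epinephrine libraries. The log2 change from Control to Epinephrine had a rho of 0.05 with exon length, and of -0.06, 0.20 and 0.00 without Epinephrine 1, 2 and 3. Its part in single results was not tested beyond a fit that corrects each library for exon length, whose counts are given with the main ones.

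**Figure D1:**
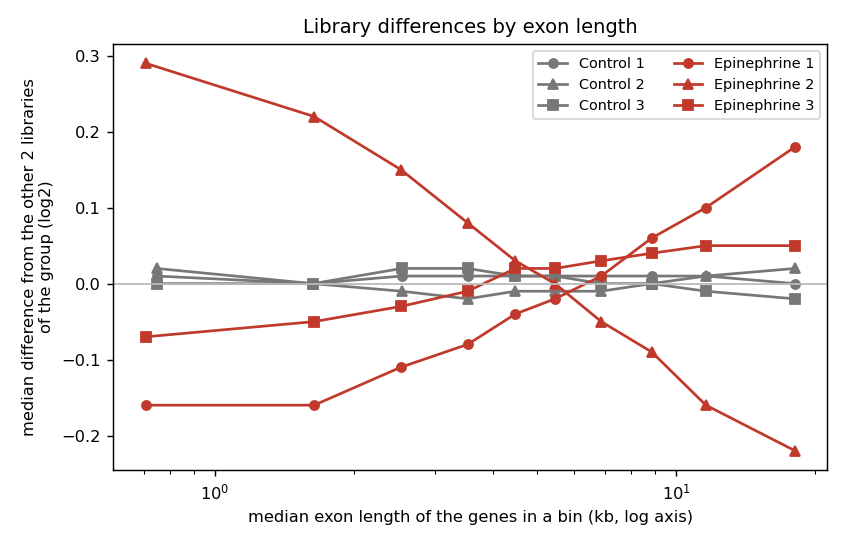
Median log2 difference of each library from the other 2 of its group (vertical axis) for genes binned by exon length (horizontal axis, kilobases, log scale), with grey lines for Control 1 to 3 and red lines for Epinephrine 1 to 3. The Control lines stay within 0.02 of 0, Epinephrine 2 falls from 0.29 to -0.22 with exon length, and Epinephrine 1 runs from -0.16 to 0.18.

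Genes that differed most in level among the Epinephrine libraries included CSF2, SLC7A11-AS1, VCAM1, ZBTB20, ANKRD36C, the nuclear RNA MALAT1 and the ribosomal pseudogenes RPL13P12 and RPS2P5. MALAT1 stood at 14.1, 7.74 and 6.53 CPM in Epinephrine 1, 2 and 3, and RPS2P5 at 8.04, 18.1 and 8.29 CPM. Epinephrine 1 was thus the high library for the former and Epinephrine 2 for the latter, and neither gene passed the test against Control. Reads of pseudogenes can come from their parent genes, and these 2 levels are uncertain. The labelled cell type was checked on endothelial markers, whose summed level was 1830 to 1879 CPM of the library total in Control and 1570 to 1623 in Epinephrine. The summed markers of leukocytes, glia, pericytes, neurons, epithelium and erythroid cells lay at 495 to 548 in Control and 450 to 498 in Epinephrine, with 7 to 12 of the 24 at 0 in a library. Most of that sum came from the pericyte markers CSPG4 and PDGFRB and from MBP. Their means in Control were 324, 68.2 and 95.6 CPM, scaled over all 30 libraries, beside 269 CPM for the endothelial CDH5.

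Epinephrine changed 4012 of 15908 genes (25.2%; edgeR's quasi-likelihood test, two-sided, Benjamini-Hochberg adjusted p under 0.05, here called changed). Of these, 2141 rose (13.5%) and 1871 fell (11.8%). Most changes were small, with a median size of 0.31 on the log2 scale, and 162 genes rose (1.02%) and 151 fell (0.949%) by more than 1, together 1.97%. The median over all genes tested was 0.01. For 5420 genes (34.1%) the 3 Epinephrine libraries lay all above or all below the 3 Control libraries. Without Epinephrine 2 the number of changed genes was 4440, and with the correction for exon length it was 4288 (2178 higher and 2110 lower). Scaling by total counts gave 1992 higher and 2007 lower, so the balance of rises and falls depended on the scaling. RNA was pooled over the cells of a sample, so a change within each cell and a change in the share of cells that make a transcript cannot be told apart.

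The 15 largest rises are given among genes with a symbol, a mean of at least 5 CPM in Epinephrine and no overlap between the groups' libraries, and the largest falls likewise with that mean in Control. Some genes at lower levels, such as SELE, had larger fold changes and are described with their lists. CSF2, which encodes the granulocyte-macrophage colony-stimulating factor (chr5:132073790-132076170, plus strand, GENCODE 29 on GRCh38), was at 0.624, 0.471 and 0.331 CPM in Control 1, 2 and 3 and at 2.49, 4.35 and 8.38 CPM in Epinephrine 1, 2 and 3. The groups did not overlap, and Epinephrine 3 was the highest library. The log2 fold change was 3.42 (SE 0.63, adjusted p = 0.00205 by edgeR), a 10.7-fold rise on counts of 6 to 12 per Control library, and it was 2.82 without Epinephrine 3. C11orf96 (chr11:43942505-43944338, plus strand), a gene of little-known function, rose from 5.3, 5.75 and 5.07 CPM to 32.3, 43.9 and 48.2 CPM, a log2 fold change of 2.95 (SE 0.18). IL1RL1 (chr2:102311502-102352037, plus strand), a receptor of the interleukin-1 family, rose from 0.987, 1.1 and 1.16 CPM to 8.51, 7.19 and 6.62 CPM, a log2 fold change of 2.77 (SE 0.21). Each of the Epinephrine libraries was above each Control library for both genes. Exons of C11orf96 and IL1RL1 overlap those of other annotated genes (for IL1RL1, IL18R1 on the same strand), and how such reads were counted is not given in the sources used here.

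SFRP1, a secreted Wnt antagonist, rose from 1.97, 2.35 and 2.04 CPM to 12.2, 12.3 and 12.7 CPM, a log2 fold change of 2.54 (SE 0.17). HEY1, a transcriptional repressor downstream of Notch, rose by 1.98 (SE 0.21), and SNAI2, the zinc-finger repressor Slug, by 1.94 (SE 0.12). SNAI2 stood at 4.88, 5.18 and 5.84 CPM in Control and at 20.2, 17.9 and 22.6 CPM in Epinephrine. The groups of libraries were apart for each of the 3 genes. GEM, a small GTPase that inhibits calcium channels, rose by 2.28 (SE 0.29), from 2.65, 2.2 and 2.64 CPM to 8.76, 10.6 and 16.7 CPM. IGFBP5, a binding protein of insulin-like growth factors, rose by 1.85 (SE 0.22), C2CD4B by 1.81 (SE 0.17) and FGG, the fibrinogen gamma chain, by 1.76 (SE 0.09). FGG was at 11.9, 11.7 and 13.2 CPM in Control and at 37.7, 45 and 41.7 CPM in Epinephrine, the narrowest error among the 15 largest rises.

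The cystine transporter SLC7A11 and a transcript from its opposite strand rose together. SLC7A11 (chr4:138164097-138242349, minus strand), which imports cystine for glutathione synthesis, rose from 277, 271 and 270 CPM to 565, 447 and 553 CPM, a log2 fold change of 0.94 (SE 0.06, adjusted p = 4.01e-13 by edgeR). SLC7A11-AS1 (chr4:138057464-138178177, plus strand) rose from 0.831, 0.366 and 0.992 CPM to 7, 2.51 and 5.67 CPM, by 2.80 (SE 0.35). Both were lowest in Epinephrine 2 among the treated libraries, and neither gene's groups overlapped. Since exons of the pair overlap and it is not known whether strand was used in counting, reads of the antisense transcript and of SLC7A11 cannot be told apart there.

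VIPR1 had the largest fall under the same conditions. VIPR1 (chr3:42489299-42537573, plus strand), the receptor of vasoactive intestinal peptide and itself coupled to the stimulatory G protein, fell from 20.3, 20.1 and 17.9 CPM to 6.43, 4.46 and 5.94 CPM. Its log2 fold change was -1.79 (SE 0.14, adjusted p = 2.61e-12 by edgeR), which is 3.45-fold lower. ITGA11, a collagen-binding integrin subunit, and RAB17, a small GTPase of polarised membrane traffic, each had a log2 fold change of -1.67. PTGIS, the prostacyclin synthase, fell from 9.41, 8.57 and 7.99 CPM to 3.22, 2.95 and 3.81 CPM (log2 fold change -1.37, SE 0.16). The Control libraries were all above the Epinephrine libraries for these 4 genes.

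Histone deacetylases and a clock gene were also among the largest falls. The class IIa histone deacetylase HDAC5 fell from 65.9, 63.7 and 59.1 CPM to 25.3, 26.3 and 27.3 CPM, a log2 fold change of -1.26 (SE 0.07), and its relative HDAC9 changed by -1.19 (SE 0.14). FAM43A fell from 101, 102 and 102 CPM to 44.5, 45.1 and 37.1 CPM (-1.27, SE 0.07). NR1D1, the clock repressor REV-ERB alpha, changed by -1.12 (SE 0.13), with Epinephrine 1 at 9.34 CPM above the other treated libraries at 6.96 and 7.07 CPM. NRROS, CRACDL, ZNF792, MMP24, RIPOR3, OLFML2A and SLC37A1 completed the 15 largest falls, with log2 fold changes from -1.65 to -1.14.

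**Figure D2:**
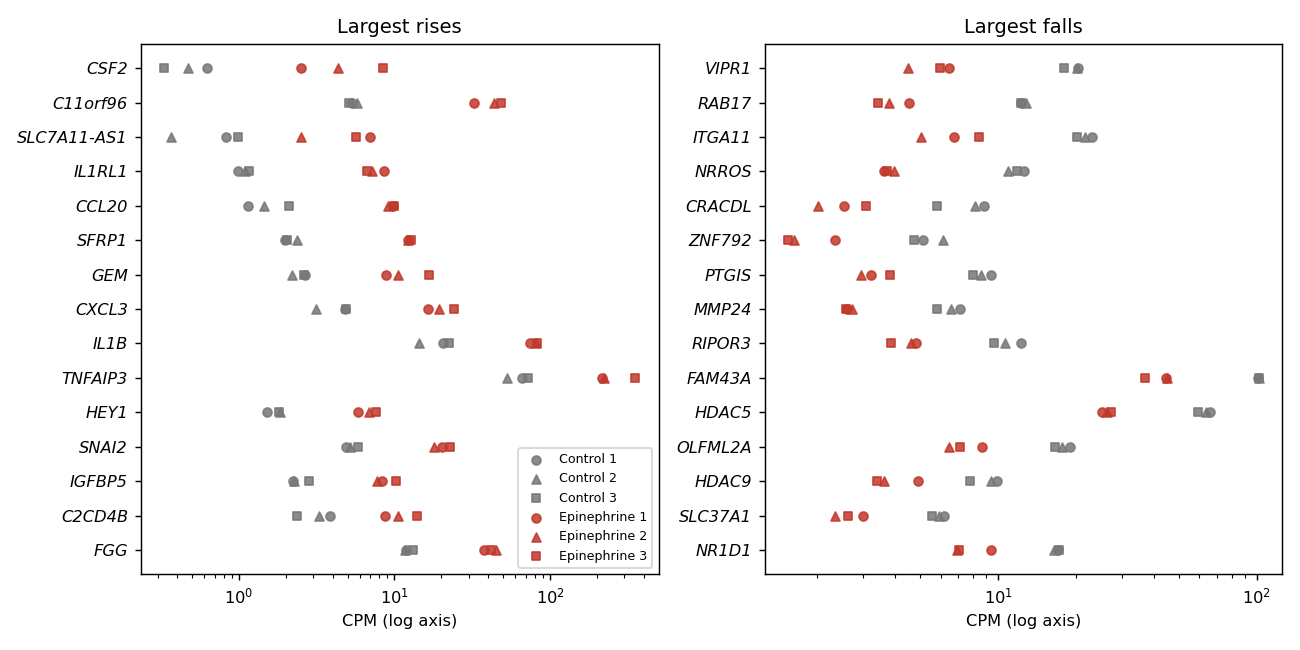
CPM (horizontal axes, log scale) of the 15 genes with the largest rises (left) and the 15 with the largest falls (right), ordered by log2 fold change, with a grey symbol for each Control library and a red one for each Epinephrine library. The groups are apart for all 30 genes, as the choice of the genes required, and the Epinephrine libraries of CSF2 spread from 2.49 to 8.38 CPM.

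Transcripts of the adrenergic receptors ADRA1B and ADRB1 were lower after epinephrine. The genes below are given by list, up to 4 per list with the smallest adjusted p, and the further members named were chosen after their values were seen. ADRA1B (chr5:159865080-159972544, plus strand), an alpha-1 receptor, fell from 22.8, 19.7 and 23 CPM to 10.5, 12.9 and 11.9 CPM (log2 fold change -0.89, SE 0.11, adjusted p = 8.6e-08 by edgeR). ADRB1 (chr10:114044056-114046908, plus strand), the beta-1 receptor, fell from 12.8, 12.6 and 10.5 CPM to 6.95, 9.08 and 6.53 CPM (-0.68, SE 0.14). No Epinephrine library overlapped the Control libraries for either gene. Per kilobase of exon, the Control levels were 8.13 CPM for ADRA1B and 4.2 CPM for ADRB1, and those in Epinephrine were 4.38 and 2.64 CPM, in the same order. ADRA1D, ADRA2A and ADRA2B had between 0 and 3 counts in each of the 6 libraries, and ADRA1A, ADRA2C and ADRB3 had 0, where a count of 0 allows up to 3 counts per library.

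Genes that couple these receptors or switch them off changed in both directions. Of 15 such genes tested, 3 rose and 6 fell, against 13.5% and 11.8% of all genes, with a median log2 fold change of -0.02. RGS4, which shortens signalling by inhibitory and Gq-type G proteins, rose from 146, 132 and 150 CPM to 279, 290 and 301 CPM (1.02, SE 0.07). RGS2, which acts on Gq and is itself a cyclic AMP target, fell from 3.01, 3.5 and 4.52 CPM to 1.45, 1.39 and 1.4 CPM (-1.37, SE 0.28). The groups were apart for both. The kinase GRK2 and the arrestin ARRB1, which end receptor signalling, had log2 fold changes of -0.26 (SE 0.05) and -0.43 (SE 0.09), and the stimulatory subunit gene GNAS of -0.17 (SE 0.04). The inhibitory subunit GNAI1 rose by 0.37 (SE 0.06).

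Among 32 tested genes for the enzymes and effectors of cyclic AMP, 5 rose and 7 fell, against 13.5% and 11.8% of all genes, with a median of 0.02. PDE4D, a phosphodiesterase that degrades cyclic AMP, rose from 7.95, 8.73 and 7.05 CPM to 13.9, 13.5 and 14.7 CPM (0.83, SE 0.13), and the kinase subunit PRKAR2B rose by 0.41 (SE 0.09). The related phosphodiesterase PDE4B had a log2 fold change of -0.24 (SE 0.06). PDE4D rose in all 3 libraries above the Control range, and PDE4B lay below it in all 3. Genes for the transcription factor CREB1 and for its coactivator CRTC1 changed by 0.25 (SE 0.06) and -0.35 (SE 0.09). The count of rises in this list depended on single libraries, with 3 without Control 2 and 8 without Epinephrine 2, and that of falls with 4 without Control 1 and 3 without Epinephrine 3. Of 8 tested genes that take up or break down catecholamines, 1 rose, the monoamine oxidase MAOA at 0.27 (SE 0.05), and 0 fell. Only 3 of this list had a mean of at least 50 counts, so changes in the others could be missed.

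Known targets of cyclic AMP and CREB changed in both directions after 12 h. Of 23 tested, 8 rose and 7 fell, against 13.5% and 11.8% of all genes, and the median was -0.15. ID1, an inhibitor of differentiation, rose from 71.5, 60.9 and 55.3 CPM to 192, 228 and 206 CPM (1.74, SE 0.07, adjusted p = 1.55e-15 by edgeR). PDK4, which keeps pyruvate out of oxidation, rose from 82.3, 72.5 and 68.5 CPM to 161, 144 and 186 CPM (1.14, SE 0.09). In contrast the kinase gene SIK1 fell from 145, 139 and 140 CPM to 63.1, 76.3 and 76.5 CPM (-0.98, SE 0.06) and the clock gene PER1 from 400, 388 and 358 CPM to 234, 198 and 240 CPM (-0.77, SE 0.06). For these 4 genes no libraries of the groups overlapped. The counts of SIK1 are uncertain, since the genome holds a near-identical copy. The nuclear receptors NR4A1, NR4A2 and NR4A3, classic early CREB targets, did not pass the test, with log2 fold changes of -0.15 (SE 0.08), -0.18 (SE 0.12) and -0.29 (SE 0.17). CREM rose by 0.38 (SE 0.07), and AREG, the growth factor amphiregulin, changed by -0.95 (SE 0.11).

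**Figure D3:**
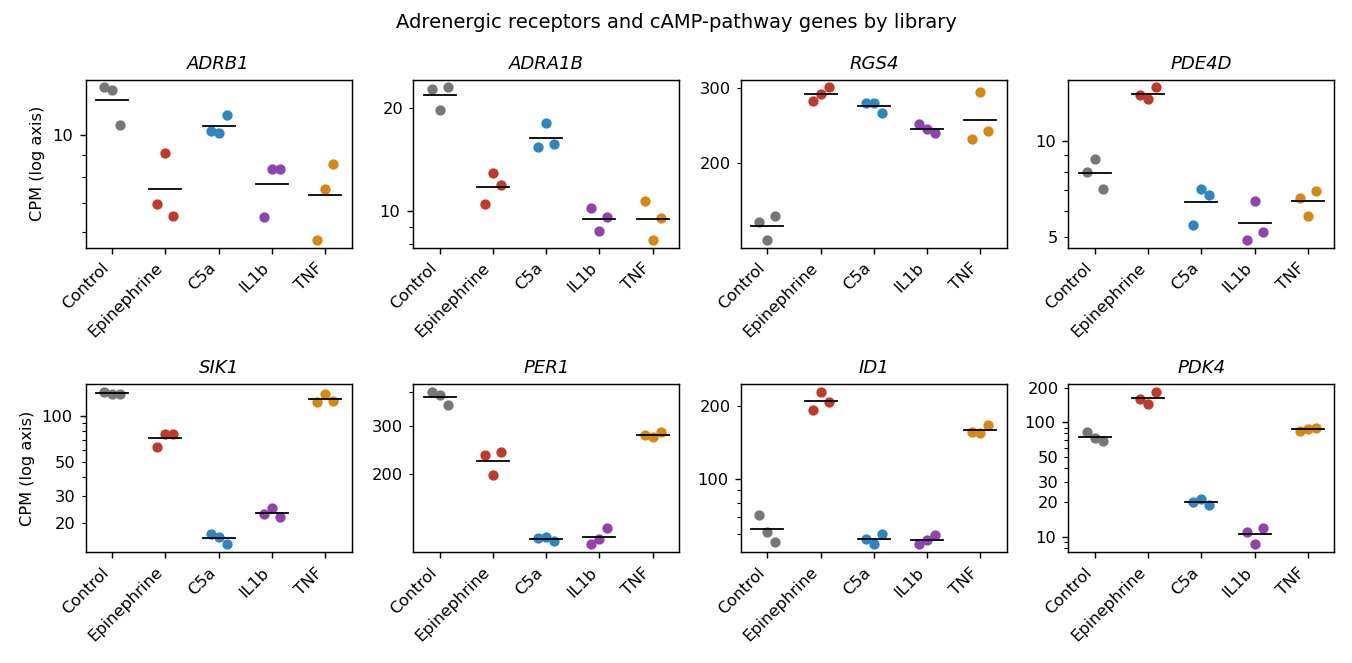
CPM (vertical axes, log scale) of the adrenergic receptors ADRB1 and ADRA1B, the signalling regulator RGS4 and 5 genes of the cyclic AMP pathway in each of the 15 direct libraries, a point per library and a line at the group mean. RGS4, PDE4D, ID1 and PDK4 lie higher in Epinephrine than in Control, and ADRB1, ADRA1B, SIK1 and PER1 lie lower.

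DUSP1 and AREG, a pair of the CREB targets, hold the full cyclic AMP response element TGACGTCA in their promoters, and both had fallen at 12 h. Promoters were taken from RefSeq (GRCh38.p14) as 250 bases before and 50 after the start of a gene, and both strands were searched. The element was found in 2 of the 21 listed targets that have a promoter in that table, DUSP1 and AREG, and in 1.98% of all 27305 promoters. It is shown in capitals with its surroundings, 125 bases before the start of DUSP1 (chr5:172771301-172771332, minus strand) and 65 before that of AREG (chr4:74445059-74445090, plus strand).
DUSP1: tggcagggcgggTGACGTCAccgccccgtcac
AREG: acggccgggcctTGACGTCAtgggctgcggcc
DUSP1, a phosphatase of MAP kinases, stood at 1622, 1285 and 1524 CPM in Control and at 855, 985 and 804 CPM in Epinephrine (-0.75, SE 0.12), and AREG at 29.8, 29.9 and 28 against 14.2, 16.2 and 15.2 CPM. The groups were apart for both genes. The promoters found of the 15 largest rises (9) and of the 15 largest falls (13) did not hold the element. Some genes of other lists hold it too, among them LDHA, which rose, and MAFF, which fell. Genes with the element thus changed in both directions.

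Immediate early genes also changed in both directions. Of 27 tested, 9 rose and 7 fell, against 13.5% and 11.8% of all genes (median 0.04), and the number of rises was 5 without Control 2 and 5 without Epinephrine 3. EGR1, a zinc-finger factor of growth signalling, rose from 123, 106 and 133 CPM to 245, 250 and 246 CPM (1.04, SE 0.16), and its low-level relatives EGR2 and EGR3 rose from at most 0.386 CPM to between 1.39 and 2.08 CPM. MYC rose by 0.62 (SE 0.05) and FOSL1 by 0.53 (SE 0.06). Falls were found for SPRY2, an inhibitor of growth factor signalling (-1.01, SE 0.07), for MAFF (-0.63, SE 0.06) and for KLF2, a factor of quiescent endothelium (-0.99, SE 0.20). KLF2 was at 237, 173 and 166 CPM in Control and at 83.4, 113 and 93.9 CPM in Epinephrine, without overlap. FOS varied widely in Control, at 469, 155 and 266 CPM, and did not pass the test at 163, 191 and 147 CPM in Epinephrine.

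Cytokine and chemokine genes rose more often than they fell. Of 27 tested, 16 rose (13.5% of all genes) and 3 fell (11.8%), with a median log2 fold change of 0.76. The median was 0.67, 0.68 and 0.69 in Epinephrine 1, 2 and 3, each set against the Control mean, so the libraries that differed in other ways gave almost the same value here. The neutrophil chemokine CXCL8 rose from 106, 83.9 and 146 CPM to 334, 375 and 391 CPM (1.71, SE 0.18), and IL6 from 42.3, 34.1 and 51 CPM to 132, 130 and 125 CPM (1.61, SE 0.16). The lowest Epinephrine library was above the highest Control library for both. IL1B rose from 20.4, 14.3 and 22.4 CPM to 73.9, 80.7 and 82.2 CPM (2.06, SE 0.16, adjusted p = 3.94e-06 by edgeR), and IL1A by 1.48 (SE 0.18). CCL20, which attracts lymphocytes and dendritic cells, rose from 1.14, 1.46 and 2.09 CPM to 9.85, 9.08 and 9.97 CPM (2.62, SE 0.19). Control 2 was the lowest Control library for CXCL8, IL6 and IL1B.

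Other members showed the width of the cytokine response. CXCL3 rose by 2.23 (SE 0.23), CXCL1 by 1.16 (SE 0.11) and CXCL2 by 1.05 (SE 0.20). These 3 neutrophil chemokines are close paralogs, and reads they share may be split between them. CXCL12, a chemokine that holds lymphocytes at the abluminal side of brain vessels, rose from 74.8, 68.7 and 72.6 CPM to 147, 152 and 147 CPM (1.05, SE 0.05, adjusted p = 2.75e-17 by edgeR). TGFB2 rose by 0.65 (SE 0.05), LIF by 0.76 (SE 0.10) and CCL2, which attracts monocytes, by 0.67 (SE 0.14). CSF3 rose by 0.69 (SE 0.16), with an adjusted p of 0.209 when all 30 libraries were fitted with edgeR. The 3 genes that fell were CSF1 (-0.29, SE 0.06), CCL5 (-0.41, SE 0.11) and CX3CL1 (-1.50, SE 0.42), and without Control 2 the number was 1, with an edgeR adjusted p of 0.0743 for CCL5. CX3CL1, at 0.52, 1.25 and 0.992 CPM in Control and 0.57, 0.111 and 0.272 CPM in Epinephrine, had overlapping groups. Its value was -2.16 without Epinephrine 1, and its edgeR adjusted p was 0.0755 without Control 2. The interferon-induced CXCL10 did not pass the test. The gene of tumour necrosis factor itself was too low to test, with 0, 1 and 0 counts in Control and 9, 6 and 24 counts in Epinephrine.

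The response was set beside those to the cytokines, which share the Control libraries. IL1b and TNF cells held 1156 and 1644 CPM of CXCL8 on average (SD 33.7 and 301, n = 3), against log2 fold changes over Control of 3.37 and 3.88 there and 1.71 in Epinephrine. CCL20 was at 9.94 CPM in IL1b (SD 0.636, n = 3), within the range of the Epinephrine libraries, and at 23.4 CPM in TNF (SD 2.92, n = 3). VCAM1, the adhesion molecule for monocytes and lymphocytes, was at 122 CPM in IL1b (SD 6.41, n = 3) and 1145 CPM in TNF (SD 58.1, n = 3). It rose under Epinephrine from 7.22, 6.17 and 8.82 CPM to 11, 17 and 28.8 CPM. CXCL12 changed by 0.61 in IL1b and by -1.98 in TNF, and by 1.05 in Epinephrine. Differences between Epinephrine and these 2 groups were not tested.

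**Figure D4:**
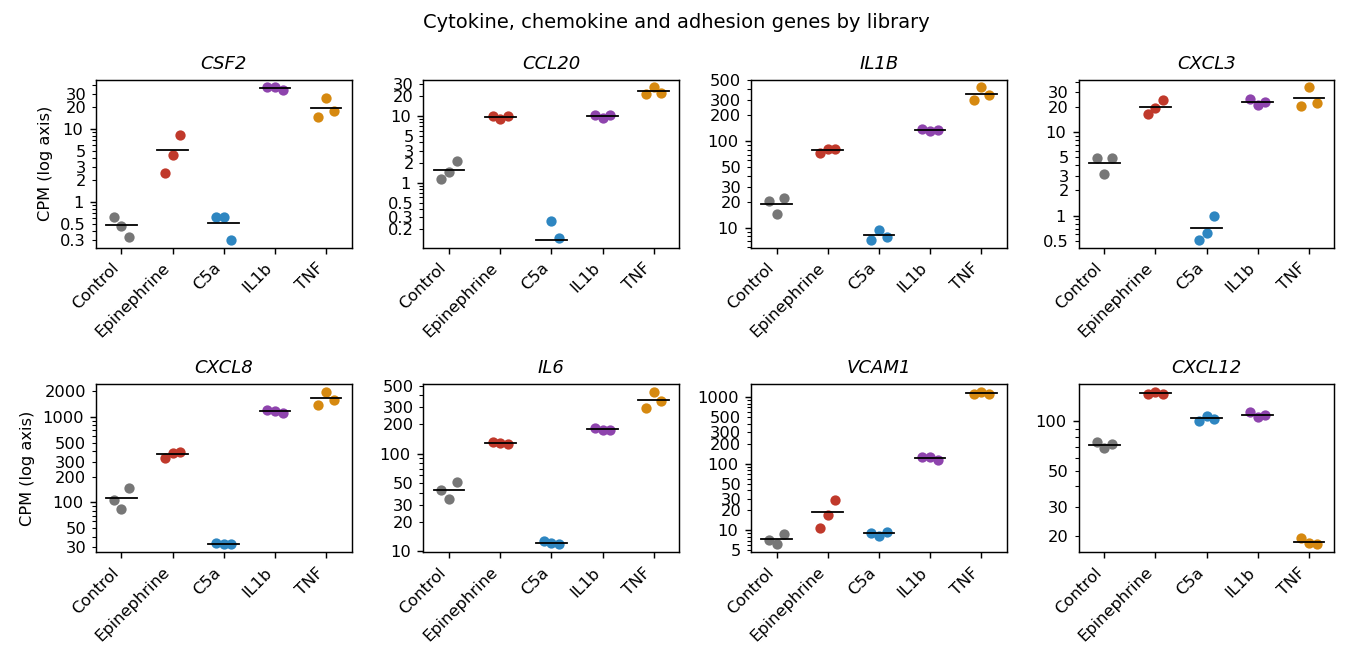
CPM (vertical axes, log scale) of 8 cytokine, chemokine and adhesion genes in each of the 15 direct libraries, a point per library and a line at the group mean, with the C5a library at 0 CPM for CCL20 not drawn. In every panel the 3 Epinephrine libraries lie above the 3 Control libraries, with the widest spread for CSF2 (2.49 to 8.38 CPM) and VCAM1 (11 to 28.8 CPM).

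Adhesion molecules and targets of the transcription factor NF-kappaB changed unevenly. Of 22 tested, 11 rose and 3 fell (median 0.18), against 13.5% and 11.8% of all genes. The number of falls was 0 without Control 1 or Epinephrine 3 and 1 without Epinephrine 1. TNFAIP3, a ubiquitin-editing inhibitor of NF-kappaB, rose from 66.3, 53 and 71.8 CPM to 216, 223 and 352 CPM (2.05, SE 0.20), and NFKBIA, the inhibitor that NF-kappaB induces, by 0.88 (SE 0.11). SELE, the endothelial selectin, rose from 5, 2 and 3 counts to 25, 26 and 97 counts (3.74, SE 0.55), and its value was 2.91 without Epinephrine 3. VCAM1 rose by 1.38 (SE 0.31), with an adjusted p of 0.0582 when only the 6 libraries were fitted with edgeR. ICAM1 did not pass the test, at 144, 137 and 134 CPM in Control and 125, 132 and 190 CPM in Epinephrine. Epinephrine 3 was the highest library for TNFAIP3, SELE, VCAM1 and ICAM1, and the median of the list was 0.48 there against 0.16 and 0.12 in Epinephrine 1 and 2. SOD2, the mitochondrial superoxide dismutase, rose from 490, 489 and 517 CPM to 748, 760 and 888 CPM (0.68, SE 0.05).

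A sequence of the NF-kappaB type, GGGANTTTC or GGGANTTCC on either strand, was found in the RefSeq promoters of 8 of 20 cytokine and chemokine genes (40%) and 9 of 20 adhesion and NF-kappaB genes (45%), against 3.14% of all 27305 promoters. The lists had been written with such genes in mind, so the shares describe the lists. The windows of 7 genes that rose and carry a match are shown as examples, with the match in capitals. They lie at chr4:73869302-73869334 (CXCL1, plus strand), chr4:74099253-74099285 (CXCL2, minus strand), chr4:74038748-74038780 (CXCL3, minus strand), chr7:22727115-22727147 (IL6, plus strand), chr6:137867181-137867224 (TNFAIP3, plus strand, with 2 matches), chr1:100719668-100719700 (VCAM1, plus strand) and chr1:169734152-169734184 (SELE, minus strand).
CXCL1: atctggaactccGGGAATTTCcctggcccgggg
CXCL2: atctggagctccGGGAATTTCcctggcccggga
CXCL3: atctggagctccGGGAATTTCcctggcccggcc
IL6: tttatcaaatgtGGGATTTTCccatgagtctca
TNFAIP3: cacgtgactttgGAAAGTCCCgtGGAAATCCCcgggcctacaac
VCAM1: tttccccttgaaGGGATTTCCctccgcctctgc
SELE: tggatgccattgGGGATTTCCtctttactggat
The first 3 carry the same match 78 or 79 bases before the start, and IL6, VCAM1 and SELE have theirs 73, 62 and 93 bases before it. NFKBIA, which also rose, carries matches 177 and 80 bases before the start and is not shown. A match also stands in the promoters of CXCL5, CXCL6, CXCL10 and IL32, which did not pass the test. CXCL8 had no exact match in this window, but it holds the similar sequence tggaatttcc, which the patterns searched leave out. The lack of a match therefore does not show that a promoter lacks an NF-kappaB site. CXCL8 also had an AP-1 sequence (TGACTCA or TGAGTCA, in 4.92% of all promoters) 137 bases before the start. Of the largest rises with a promoter in the table, 2 of 9 held the NF-kappaB sequence (CXCL3 and TNFAIP3), and of the largest falls 0 of 13.

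Genes of glycogen and glucose use rose more often than they fell. Of 28 tested, 13 rose and 3 fell (median 0.11), against 13.5% and 11.8% of all genes, and the number of falls was 1 without Control 1. The glycogen phosphorylases PYGL and PYGB, which release glucose from glycogen, rose, PYGL from 122, 127 and 133 CPM to 172, 187 and 178 CPM (0.49, SE 0.05) and PYGB from 335, 333 and 329 CPM to 441, 457 and 443 CPM (0.43, SE 0.04). The branching enzyme GBE1 rose by 0.40 (SE 0.05) and PHKA1, a subunit of phosphorylase kinase, by 0.43 (SE 0.08). PPP1R3B, which targets a phosphatase to glycogen, rose from 32.4, 27.4 and 31 CPM to 67.2, 63.7 and 78.6 CPM (1.21, SE 0.08). All 5 of these genes were higher in every Epinephrine library than in any Control library. Lactate dehydrogenase A (LDHA) rose by 0.53 (SE 0.04) and hexokinase HK2 by 0.49 (SE 0.10), while the glucose transporter SLC2A1 had a log2 fold change of -0.31 (SE 0.05).

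Genes of the oxidative stress response, targets of the factor NRF2, rose in 16 of 26 cases and fell in 2 (median 0.29), against 13.5% and 11.8% of all genes. GCLM, the modifier subunit of glutathione synthesis, rose from 99.1, 99 and 98.6 CPM to 165, 156 and 182 CPM (0.76, SE 0.05), NQO1, a quinone reductase, by 0.46 (SE 0.04) and thioredoxin (TXN) by 0.41 (SE 0.05). OSGIN1 rose by 0.79 (SE 0.11). Heme oxygenase HMOX1, another NRF2 target, did not pass the test, at 47, 42.7 and 48.2 CPM in Control and 40.3, 47.5 and 49.3 CPM in Epinephrine. The 2 that fell, SQSTM1 and FTH1, numbered 0 without Control 1 or Epinephrine 1 and 1 without Control 2 or Epinephrine 2.

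Chaperones of the endoplasmic reticulum rose as well, with 12 of 20 ER stress genes higher and 2 lower (median 0.20), against 13.5% and 11.8% of all genes. HSPA5, the chaperone BiP, rose from 611, 590 and 653 CPM to 906, 988 and 923 CPM (0.60, SE 0.04), the factor XBP1 by 0.62 (SE 0.06) and MANF by 0.41 (SE 0.06). Genes of the amino acid response driven by ATF4 were mixed, with 11 of 31 higher and 4 lower (median 0.16). STC2 rose by 0.55 (SE 0.05), and GDF15, a stress cytokine, changed by -0.74 (SE 0.06) and DDIT4 by -0.55 (SE 0.04). ATF4 itself was at 0.04 (SE 0.05) and did not pass the test.

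Markers of endothelial identity fell more often than they rose. Of 19 tested, 12 fell and 1 rose, against 11.8% and 13.5% of all genes, with a median of -0.32, and the median was -0.25, -0.30 and -0.26 in Epinephrine 1, 2 and 3. CLDN5, the main claudin of the blood-brain barrier, fell from 50.2, 46.3 and 43.5 CPM to 21.6, 27.6 and 26.5 CPM (-0.89, SE 0.09, adjusted p = 5.59e-10 by edgeR). ESAM, an adhesion molecule of endothelial junctions, fell from 23.6, 23.9 and 24.2 CPM to 12.6, 14.3 and 13.1 CPM (-0.85, SE 0.10). CDH5, the endothelial cadherin, fell from 269, 255 and 267 CPM to 191, 183 and 208 CPM (-0.44, SE 0.05). For each of the 3 the groups were apart. EGFL7, secreted by endothelium, changed by -0.67 (SE 0.06), PECAM1 by -0.22 (SE 0.05) and von Willebrand factor (VWF) by -0.31 (SE 0.07). The receptor KDR did not pass the test, at -0.32 (SE 0.14), and ERG, a factor that maintains endothelial fate, stood at 0.06.

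The wider junction list held 4 rises and 8 falls among 24 tested genes (median -0.12), against 13.5% and 11.8% of all genes. The claudin partners OCLN and TJP1 did not pass the test, with log2 fold changes of -0.08 (SE 0.11) and -0.02 (SE 0.06). GJA1, a gap junction protein, rose from 126, 121 and 137 CPM to 188, 193 and 196 CPM (0.59, SE 0.05). Barrier transporters rose in 11 of 25 cases and fell in 3 (median 0.14), and 7 rose without Control 2. The transferrin receptor TFRC rose from 240, 239 and 253 CPM to 402, 376 and 418 CPM (0.71, SE 0.04), and the amino acid transporters SLC38A5 and SLC38A2 by 0.61 (SE 0.07) and 0.44 (SE 0.04). The efflux pump ABCB1 was slightly lower, at 209, 219 and 220 CPM in Control and 197, 174 and 187 CPM in Epinephrine (-0.21, SE 0.05).

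**Figure D5:**
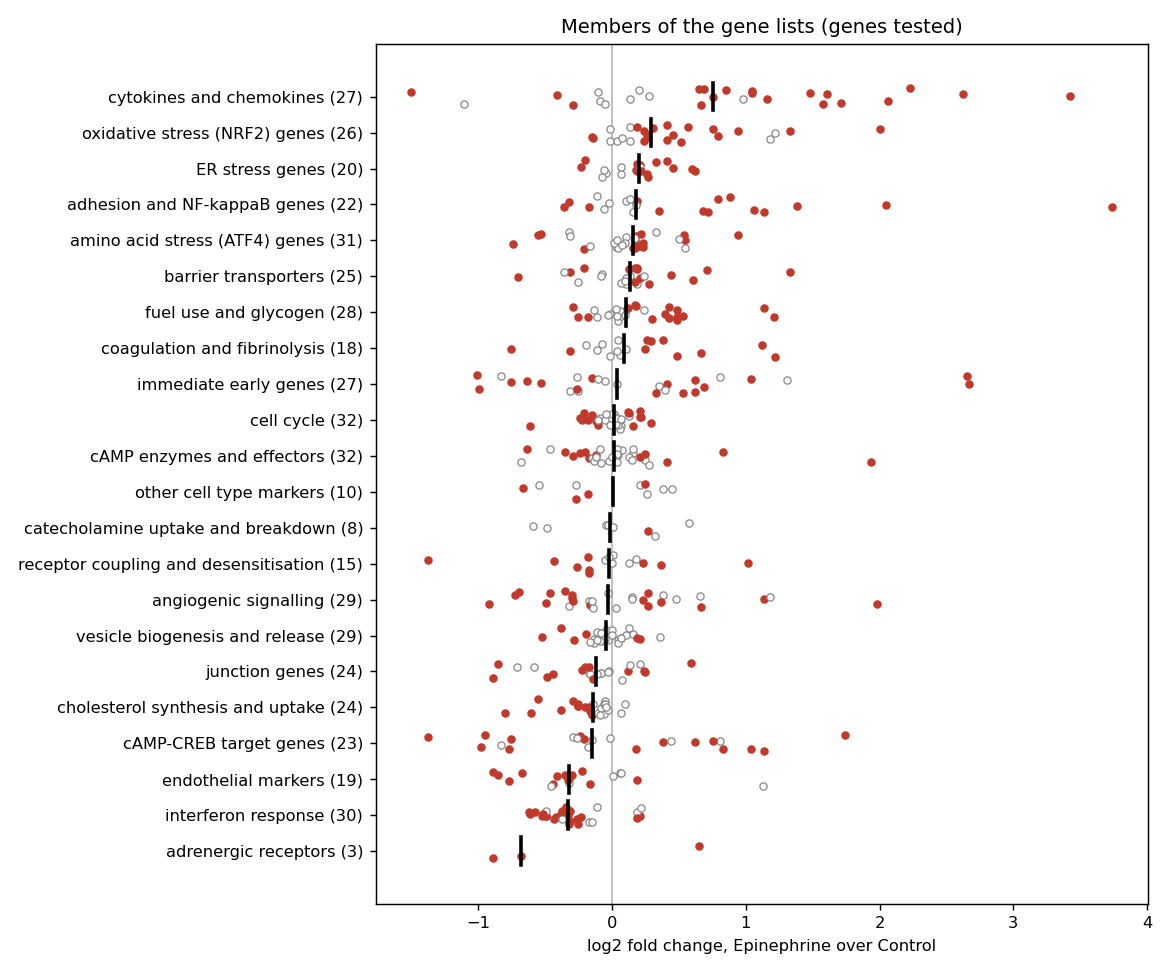
Log2 fold change from Control to Epinephrine (horizontal axis) of each tested member of the 22 gene lists (rows, ordered by median, with the number tested), red where the edgeR adjusted p was under 0.05, with a black bar at the median. The cytokine list has the highest median, 0.76, and the interferon list stands at -0.33, with the adrenergic receptor list at the lowest median, -0.68.

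Angiogenic and coagulation genes changed in both directions. Of 29 angiogenic genes 7 rose and 10 fell (median -0.03), against 13.5% and 11.8% of all genes. The Notch ligand JAG1 rose from 75.4, 75.4 and 76.6 CPM to 116, 109 and 135 CPM (0.67, SE 0.06), and ANGPTL4, an inhibitor of lipoprotein lipase, by 1.14 (SE 0.09). APLN, the ligand of the apelin receptor, fell from 137, 134 and 123 CPM to 63, 73.6 and 71.7 CPM (-0.92, SE 0.06), and endothelin (EDN1), a vasoconstrictor, from 101, 93.4 and 103 CPM to 62.1, 61.5 and 56.8 CPM (-0.72, SE 0.06). The groups did not overlap for these. Of 18 genes of coagulation and fibrinolysis, 8 rose and 2 fell (median 0.09), and 1 fell without Control 2 or Epinephrine 1. Tissue factor (F3), which starts coagulation, rose from 11.6, 10.6 and 12 CPM to 24.1, 22.2 and 27.7 CPM (1.12, SE 0.10), its inhibitor relative TFPI2 by 0.67 (SE 0.05) and thrombospondin THBS1 by 0.49 (SE 0.05).

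Interferon-response genes were lower in 21 of 30 cases and higher in 2, against 11.8% and 13.5% of all genes, with a median of -0.33. The MHC class I gene HLA-B fell from 1848, 1819 and 1859 CPM to 1124, 1440 and 1291 CPM (-0.52, SE 0.06). TAP1, the peptide transporter, fell by 0.37 on the log2 scale (SE 0.05). MX1, an antiviral GTPase, stood at 582, 556 and 596 CPM in Control and at 312, 354 and 471 CPM in Epinephrine (-0.61, SE 0.13). Epinephrine 1 was the lowest library for HLA-B and for MX1, and the median of the list was -0.53, -0.29 and -0.19 in Epinephrine 1, 2 and 3. HLA-B is polymorphic and similar to its paralogs, so its counts are uncertain. The number of rises was 4 without Epinephrine 1 and 1 without Control 1, Control 2 or Epinephrine 3.

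Of 24 genes of cholesterol synthesis and uptake, 12 fell and 0 rose by edgeR at an adjusted p under 0.05 (median -0.14), against 11.8% and 13.5% of all genes. Without Epinephrine 2, 1 rose. LSS, the lanosterol synthase, fell from 193, 192 and 188 CPM to 139, 127 and 126 CPM (-0.55, SE 0.05), and HMGCS1, an early enzyme of the pathway, by 0.38 on the log2 scale (SE 0.05). TM7SF2, a sterol reductase, changed by -0.60 (SE 0.07).

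Cell cycle genes changed in both directions, mostly by small amounts. Of 32 tested, 7 rose and 8 fell, against 13.5% and 11.8% of all genes (median 0.02), and 5 fell without Control 1, 2 or 3, Epinephrine 1 or Epinephrine 3. The cell cycle inhibitor CDKN1A had the largest change of the list, from 449, 450 and 439 CPM to 277, 300 and 304 CPM (-0.61, SE 0.04). Among 29 genes of vesicle biogenesis and release, 2 rose and 4 fell (median -0.04), against the same shares of all genes. The tetraspanin CD82 fell from 123, 128 and 127 CPM to 75.8, 98.3 and 89.3 CPM (-0.52, SE 0.06), and SDCBP, the syntenin of exosome formation, rose by 0.19 (SE 0.05). The number of falls in that list was 8 without Epinephrine 2 and 8 under both other scalings, and 1 rose without Control 2 or Epinephrine 3.

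Markers of cell types other than endothelium were tested in 10 of 24 cases. The myelin gene MBP, which other cells also transcribe, rose by 0.25 (SE 0.05), and CSPG4, a pericyte marker, changed by -0.27 (SE 0.05). PDGFRB and ACTA2 were at -0.18 (SE 0.06) and -0.66 (SE 0.24). By edgeR, the adjusted p of PDGFRB was 0.163, 0.069 and 0.064 without Control 1, Epinephrine 2 and Epinephrine 3. That of ACTA2 was 0.116, 0.191, 0.118 and 0.172 without Control 1, Control 2, Epinephrine 1 and Epinephrine 3, and its groups overlapped. The number of falls in the list was 1 without Control 1 or Epinephrine 3.

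Epinephrine was compared with C5a because C5a also acts through a G protein-coupled receptor, one that couples to inhibitory G proteins, and this contrast uses no Control library. It called 2714 of 15908 genes (17.1%), 1428 higher in Epinephrine (8.98%) and 1286 lower (8.08%). Scaling by total counts turned this balance, with 1268 higher and 1577 lower. A difference over 1 on the log2 scale was found for 316 of these (1.99%), 258 higher (1.62%) and 58 lower (0.365%). Cytokine genes were higher in Epinephrine in 17 of 27 cases and lower in 0 by edgeR (median difference 1.56), and targets of cyclic AMP and CREB in 19 of 23 cases, with 1 lower (median 1.13). Against Control, the median in Epinephrine was 0.76 for the cytokine list and -0.15 for the CREB targets. The contrast therefore also holds changes of the C5a cells from Control. CCL20 was at 9.85, 9.08 and 9.97 CPM in Epinephrine and at 0, 0.261 and 0.149 CPM in C5a, a difference of 6.08 (SE 0.30) that was 6.88 without C5a 2. NR4A2 was at 86.9, 91.5 and 111 CPM against 4.79, 5.49 and 4.32 CPM, a difference of 4.31 (SE 0.17). No libraries of the groups overlapped. Against Control, NR4A2 had changed by -4.49 in C5a and by -0.18 in Epinephrine.

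Other chemokine and cytokine genes were also higher in Epinephrine than in C5a. CXCL3 differed by 4.80 (SE 0.32), C11orf96 by 4.79 (SE 0.22) and CSF3 by 3.89 (SE 0.25), where the rise of CSF3 over Control was 0.69. The receptors ADRA1B and ADRB1 were higher in C5a than in Epinephrine, by 0.48 (SE 0.11) and 0.49 (SE 0.14). Lower in Epinephrine were MMP24, a membrane-bound metalloproteinase (-1.21, SE 0.18), the growth factor BMP4 (-1.12, SE 0.07), JPH2 (-1.09, SE 0.14), RIPOR3 (-1.07, SE 0.13) and CMPK2, an interferon-induced nucleotide kinase (-1.16, SE 0.25). BMP4 was at 25.3, 26.5 and 23 CPM in Epinephrine and 53.8, 52.9 and 56 CPM in C5a, without overlap. CMPK2 spread from 16.9 to 36 CPM in Epinephrine, and its edgeR adjusted p was 0.0979 when only the 6 libraries were fitted. Interferon-response genes were lower in Epinephrine than in C5a in 18 of 30 cases and higher in 2, against 8.08% and 8.98% of all genes. Endothelial markers were higher in Epinephrine than in C5a in 8 of 19 cases and lower in 1 (median difference 0.19).

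The direct response was also set against the response to vesicles, as EV-Epinephrine minus EV-Control less Epinephrine minus Control, on CPM scaled over all 30 libraries. This difference passed the test for 4034 of 16691 genes (24.2%), being positive, here called higher, for 1950 (11.7%) and negative, here called lower, for 2084 (12.5%). Scaling by total counts turned this balance too, with 2337 higher and 1761 lower. It was over 1 on the log2 scale for 768 genes (4.6%), 334 higher (2%) and 434 lower (2.6%). The 2 control groups differed for many of these genes, so their levels are given. C11orf96 was at 5.48 CPM in Control (SD 0.357, n = 3) and 42 CPM in Epinephrine (SD 8.4, n = 3), and at 75.5 CPM in EV-Control (SD 18.8, n = 3) and 6.77 CPM in EV-Epinephrine (SD 0.564, n = 3). CCL20 had means of 1.6, 9.76, 9.08 and 1.06 CPM in the same order. EV-Control was thus near or above the directly treated cells for both genes, and EV-Epinephrine near the direct Control. The differences were -6.42 (SE 0.33) and -5.70 (SE 0.43).

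By the same test, the difference between the responses was negative for 18 of 28 cytokine genes and positive for 1 (median -2.08). For interferon-response genes it was positive in 25 of 30 cases and negative in 2 (median 0.56). Over all genes it was negative for 12.5% and positive for 11.7%. The level of EV-Control enters each of these differences. IL1B had means of 19.4 CPM in Control, 80 CPM in Epinephrine, 72.6 CPM in EV-Control and 22.5 CPM in EV-Epinephrine. For this gene EV-Control was thus near the directly treated cells, and EV-Epinephrine near the direct Control. CLDN5 fell with epinephrine from a mean of 47.6 CPM (SD 3.35, n = 3) to 25.5 CPM (SD 3.28, n = 3), while EV-Control and EV-Epinephrine held 15.1 CPM (SD 0.915, n = 3) and 17.6 CPM (SD 1.01, n = 3), a difference of 1.12 (SE 0.13). The CLDN5 libraries of EV-Control and EV-Epinephrine were all below those of the direct groups.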

How the data were processed

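Raw read counts per gene were deposited by the authors as 1 table for all 30 samples. Per the submitters' processing notes, hg38, STAR, FastQC, R 4.4.1 and DESeq2 were used, with no role stated for each. The counting program, its annotation and its use of strand are not given in the sources used here. Of the table's lines, 4 have no gene ID (0.00079 to 0.0016% of counts) and were left out. Coordinates and lengths come from GENCODE 29, which holds 58124 of the 63138 IDs. Totals were 17274481 to 18438800 counts in Control and 17263206 to 21319005 in Epinephrine.

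Counts were fitted with edgeR 4.0.16 in R 4.3.3 (TMM scaling, filterByExpr, robust quasi-likelihood test, Benjamini-Hochberg adjustment over all genes tested). The 15 direct libraries shared a fit of 15908 genes, and the vesicle difference used all 30 libraries. CPM are TMM-scaled. The script was tested on simulated data. Named genes were up to 15 rises and 15 falls with an adjusted p under 0.05, no overlap of libraries and a mean of 5 CPM or more in whichever group was higher, adrenergic receptors, up to 4 per list, the 10 most variable in Epinephrine, and up to 5 per direction in the other comparisons. Members and the 22 lists (521 genes) were chosen with earlier results of these data known. Alternatives were DESeq2 1.42.0, other scalings and filters, other sets of libraries, a replicate block, an exon-length correction and leaving out each library. Some genes that met these rules are not reported here.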

Additional observations from a re-analysis of the deposited data

Results flagged for a closer look

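The response to vesicles of epinephrine-treated cells differed from the direct response, by an interaction test in edgeR, for 4034 genes. Among genes with an adjusted p under 0.05 whose highest group mean reached 5 CPM, the largest positive differences were those of ZNF792 (2.78 on the log2 scale, SE 0.32), FAT1 (2.67, SE 0.37), NRROS (2.50, SE 0.21), VIPR1 (2.46, SE 0.20) and RTP4 (2.19, SE 0.27). VIPR1 had means of 19.8 CPM in Control, 5.68 CPM in Epinephrine, 4.46 CPM in EV-Control and 7.06 CPM in EV-Epinephrine. In the same order, the means were 5.44, 1.85, 2.36 and 5.59 CPM for ZNF792 and 12, 3.82, 6.04 and 10.8 CPM for NRROS. Those of RTP4 were 4.12, 1.86, 3.53 and 7.37 CPM. The difference thus includes the fall of these 4 genes with direct epinephrine. FAT1, a large protocadherin, was at 1.44 CPM in Control, 1.52 CPM in Epinephrine, 2.43 CPM in EV-Control and 16.4 CPM in EV-Epinephrine, and its difference was 1.99 without Control 2.

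Under the same conditions, the largest differences in the other direction were those of CSF2 (-6.44, SE 0.96), C11orf96 (-6.42, SE 0.33), CCL20 (-5.70, SE 0.43), SLC7A11-AS1 (-5.35, SE 0.50) and GEM (-5.26, SE 0.47). CSF2 was at 14.7, 5.62 and 3.23 CPM in EV-Control 1, 2 and 3 and at 1.3, 0.627 and 0.875 CPM in EV-Epinephrine, and its difference was -5.84 without Epinephrine 3 and -5.64 without EV-Control 1. For GEM the means were 2.55 CPM in Control, 12.2 CPM in Epinephrine, 26.5 CPM in EV-Control and 3.3 CPM in EV-Epinephrine.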

How the results depend on the processing

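Single genes were followed through the alternatives only for the named genes and list members. None of those called in Epinephrine against Control changed direction. Some values near 0 that did not pass the test did, such as ATF4 (-0.02 to 0.08), ANKRD36C (-0.46 to 0.37) and CXCL5 (-0.04 to 0.28), and the median of immediate early genes was -0.09 over genes with a mean of at least 50 counts. With a log2 change over 1 required as well, 313 genes passed for Epinephrine against Control, 316 against C5a and 768 for the vesicle difference. The spread among Epinephrine libraries was 0.093 over genes with at least 20 CPM. Leaving out each library gave 3029 to 4440, 2004 to 2939 and 3541 to 4414 genes in the 3 comparisons. Fits of only the libraries compared gave 2878, 1846 and 3284 genes, and DESeq2 3678, 2521 and 3736. Same-numbered Control and Epinephrine samples had correlations of -0.026, -0.058 and 0.011 in their deviations from the group means. With 3 libraries per group, these cannot show whether the numbers pair the samples. With the replicate block the counts were 3912, 2660 and 3989. Genes with few counts, such as CSF2 and SELE, have the widest errors. The total-count scaling and the exon-length correction were chosen after seeing the data.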
